A study of Mus musculus with 2 samples.

Results

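The genes described here are 10 members of the YAP, TAZ and TEAD arm of the Hippo pathway: Yap1, Wwtr1, Tead1, Ccn1, Ccn2, Ankrd1, Axl, Amotl2, Lats2 and Ajuba. They were chosen by symbol, 10 of the 55415 genes in the deposited gene table, and each matched 1 entry. The measurement was single-cell RNA sequencing of mouse liver biliary epithelium, the cells that line the bile ducts. One library was labelled with the genotype Sox9cKO, which the series describes as the group set against control samples, and 1 library was labelled Sox9con. The labels do not name the Cre driver, the Sox9 allele, the age or sex of the mice, or how the cells were isolated, and each genotype is 1 library with no replicate. No test of genotype is therefore possible, no p-value is given, and every interval below covers counting error only.

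YAP (encoded by Yap1) and TAZ (encoded by Wwtr1) are transcriptional coactivators. They bind no DNA themselves and reach their target genes through TEAD transcription factors such as TEAD1. The Hippo kinases LATS1 and LATS2 phosphorylate YAP and TAZ and hold them in the cytoplasm, so that target transcription is low when the kinases are active. In the liver, YAP activity is known to be higher in bile duct cells than in hepatocytes. Because this control acts on the proteins, transcript counts of Yap1 and Wwtr1 do not report it.

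The Sox9cKO-labelled library held 2740 cells with 14856321 transcripts counted by unique molecular identifier (UMIs), and the Sox9con-labelled library held 3622 cells with 12811243. The median cell had 5020 and 3161 UMIs, so depth per cell was 1.59 times as high in the first. No cell barcode was shared (0 of 6362). After filtering, 2600 and 3363 cells formed the biliary fraction, in which 12 of 13 biliary markers stood at 50 CPM or more in both libraries. CPM is a gene's UMI count divided by all UMIs of the same cells and scaled to a fixed total. Sox9, the gene named in the genotype, checked the labels poorly: it had 121.9 CPM in the Sox9cKO-labelled library and 145.8 CPM in the other, and was higher in the Sox9cKO well in 10 of 20 well pairs. Directions below therefore rest on the label alone. Cells entered barcoding in 5 wells for Sox9cKO and 4 for Sox9con. The labels do not say whether the wells of a library hold 1 suspension or separate animals. They were not counted as replicates, and wells and libraries cannot be told apart.

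Promoter sequence is shown for the contrasted pair Ankrd1 and Axl and for Ccn1, because the core TEAD motif GGAATG lies in all 3 windows. On the opposite strand it reads CATTCC. Each window is the 250 bases before the RefSeq start, build GRCm38.p6, printed 5′ to 3′ on the gene's strand, with capitals marking the motif. Ankrd1 (chr19:36119845-36120094, minus strand) had 2 matches, beginning 210 and 123 bases before the start. Axl (chr7:25788734-25788983, minus strand) had 1, beginning 233 bases before it. Ccn1 (chr3:145649986-145650235, minus strand) had 1 in the reverse orientation, beginning 103 bases before it.
Ankrd1: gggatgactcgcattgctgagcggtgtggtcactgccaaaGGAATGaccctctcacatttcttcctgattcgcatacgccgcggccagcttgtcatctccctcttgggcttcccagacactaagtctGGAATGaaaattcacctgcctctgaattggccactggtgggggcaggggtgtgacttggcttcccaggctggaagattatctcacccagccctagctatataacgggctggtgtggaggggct
Axl: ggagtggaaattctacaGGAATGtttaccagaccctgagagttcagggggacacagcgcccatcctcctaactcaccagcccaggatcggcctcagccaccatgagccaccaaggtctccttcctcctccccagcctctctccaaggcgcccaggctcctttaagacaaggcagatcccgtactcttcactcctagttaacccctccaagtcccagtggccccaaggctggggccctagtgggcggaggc
Ccn1: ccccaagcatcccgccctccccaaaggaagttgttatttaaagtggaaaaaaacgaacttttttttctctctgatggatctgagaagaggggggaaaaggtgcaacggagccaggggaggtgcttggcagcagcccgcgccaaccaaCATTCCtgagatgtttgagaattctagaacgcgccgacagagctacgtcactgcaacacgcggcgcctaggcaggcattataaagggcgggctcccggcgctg

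A window was matched for 8 of the 10 genes, leaving Tead1 and Ccn2. The motif was present in 7 of these 8 genes: Ankrd1, Axl, Ccn1, Yap1, Wwtr1, Amotl2 and Ajuba. It was not found in the Lats2 windows. Of 32817 RefSeq promoter windows of the same length, 12.6% held it. Several of the genes are on the list because they are known TEAD targets, so this share is a description, and a match is not a binding site. The AP-1 motif TGANTCA, which reads the same on either strand, was in 0 of the 8 genes and in 6.75% of all windows. Ankrd1 and Axl thus both carried the TEAD letters near their starts, while their transcript counts lay far apart.

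Levels of different genes were set side by side as CPM per kilobase of exon. In the Sox9cKO-labelled library the order was Ccn1 at 305, Ankrd1 at 265.9, Tead1 at 62.4, Wwtr1 at 43.6, Yap1 at 17.3, Ccn2 at 11.7, Amotl2 at 4.21, Lats2 at 2.20, Ajuba at 1.64 and Axl at 0.498. The well ranges of Ccn1 and Ankrd1 overlapped, as did those of Lats2 and Ajuba, and the other neighbours in that order were separate. In the Sox9con-labelled library the order ran from Ccn1 at 377.7 and Ankrd1 at 329.2 to Axl at 0.180, with Wwtr1 (45.0) ahead of Tead1 (36.8). There the well ranges of Ccn1 and Ankrd1 overlapped, and so did each neighbouring pair from Ccn2 through Amotl2 and Lats2 to Ajuba. The scale counts exons only, and random hexamer priming can also capture unspliced transcripts, whose part in the level of long genes was not tested.

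**Figure D1:**
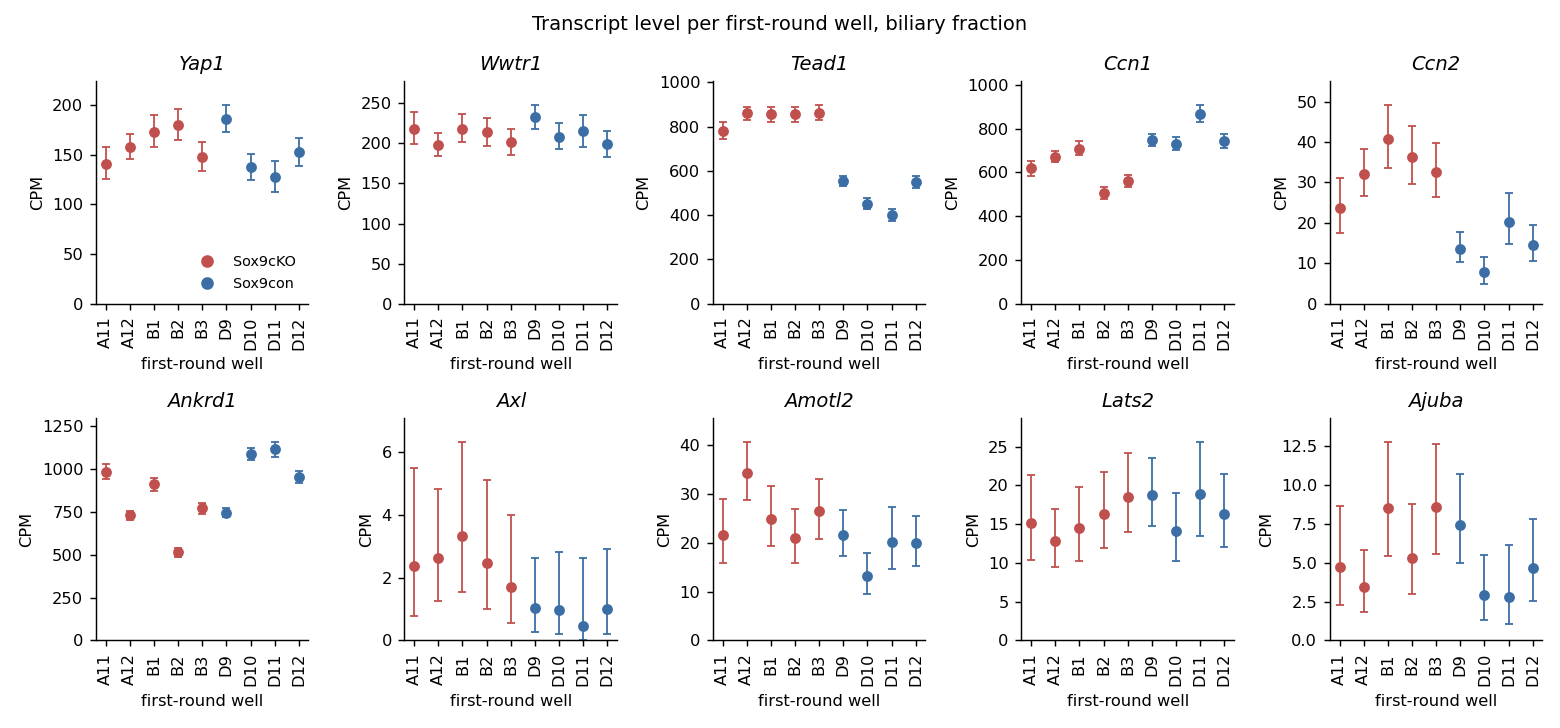
Transcript level in CPM (vertical axis, starting at 0) of each of the 10 genes in each first-round well of the biliary fraction, with exact 95% Poisson intervals as bars. Tead1, Ccn2 and Axl were higher in every Sox9cKO well than in every Sox9con well and Ccn1 was lower in all, whereas the Ankrd1 wells overlapped.

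Of the 9324 genes for which the libraries together held 200 UMIs or more, 2.21% were at least 2-fold higher in the Sox9cKO-labelled library and 1.79% at least 2-fold lower. Of the 10 genes, 8 reached 200 UMIs, and 1 of those, Ccn2, was at least 2-fold higher, while 0 were 2-fold lower. Axl and Ajuba had too few UMIs for this count. The order of the libraries was the same in every one of the 20 well pairs, each joining wells of different libraries, for 16.0% of the 9324 genes, 7.68% higher and 8.33% lower. It was the same for 3 of the 8, with Tead1 and Ccn2 higher and Ccn1 lower. The median log2 ratio of the 8 was 0.00, beside -0.07 for all 9324 genes.

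The coactivators stood at near equal levels. Yap1 had 160.4 CPM (153.9 to 167.1) in the Sox9cKO-labelled library and 154.9 (148 to 162.1) in the Sox9con-labelled library. Its wells ran from 140.5 to 179.8 CPM and from 127.6 to 185.9 CPM and overlapped widely. The log2 ratio was 0.05 (-0.04 to 0.14), higher in 13 of 20 well pairs. Its exons overlap those of Gm20416 on the other strand, a gene with 37 UMIs. Wwtr1 had 208.5 CPM (201.1 to 216.1) and 215 CPM (206.8 to 223.4), with wells from 197.8 to 218.4 and from 199.2 to 232.4. Its log2 ratio was -0.04 (-0.12 to 0.03), with 9 of 20 well pairs higher, and it turned to 0.05 with TMM factors of edgeR. In the 3 clusters with at least 100 cells of each library, clusters 1, 6 and 7, the intervals of both genes spanned 0.

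Tead1, the TEAD factor that recruits YAP and TAZ to DNA, was higher in the Sox9cKO-labelled library. Its wells A11, A12, B1, B2 and B3 had 781.1, 860, 854.9, 855.6 and 863.7 CPM. The Sox9con wells D9, D10, D11 and D12 had 553.9, 451.5, 401.1 and 549.1 CPM. No Sox9con well came near a Sox9cKO well. The log2 ratio was 0.76 (0.72 to 0.81), from 12174 and 6069 UMIs, and all 8 sublibraries had the same order. A Tead1 UMI was found in 64.3% of Sox9cKO cells (62.3 to 66.2) and 49.4% of Sox9con cells (47.5 to 51.2) after each cell was thinned to 2000 UMIs.

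That ratio was not the same in each kind of cell. The Mantel-Haenszel ratio over clusters was 0.25 in place of 0.76. It weights a cluster by the UMIs both libraries have there, so cluster 10 has no weight and cluster 4 almost none. Within cluster 1 it was 0.61 (0.50 to 0.73), within cluster 6 it was 0.07 (-0.04 to 0.18), and within cluster 7 it was -0.34 (-0.54 to -0.15). Cluster 4, with 783 Sox9cKO and 2 Sox9con cells, had the highest Sox9cKO level at 1133 CPM. Tead1 spans 227.5 kb, and tested genes of at least 100 kb had a median log2 ratio of 0.04.

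Among the targets, Ccn1 and Ccn2 encode related secreted matricellular proteins, and their transcripts differed in opposite directions. Ccn1 had 618.4, 672.2, 708.7, 506.3 and 559.3 CPM in wells A11, A12, B1, B2 and B3. In wells D9, D10, D11 and D12 it had 746.2, 730.2, 867.6 and 743 CPM. Every Sox9cKO well was below every Sox9con well, by a gap of 730.2 to 708.7 CPM at the closest. The log2 ratio was -0.31 (-0.35 to -0.27), and -0.21 and -0.16 with the TMM and DESeq2 factors.

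Ccn1 is also a short gene, spanning 3.01 kb. Tested genes under 10 kb had a median log2 ratio of -0.39, and relative to that median Ccn1 stood at 0.08. The lower level of Ccn1 was thus no larger than that of the typical gene of its span. Within clusters it was lower in cluster 1 (-0.20, -0.34 to -0.05), in cluster 6 (-0.16, -0.30 to -0.03) and in cluster 7 (-1.02, -1.32 to -0.72).

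Ccn2 was the scarcer of the pair and the gene with the larger ratio. Wells A11, A12, B1, B2 and B3 had 23.6, 32, 40.8, 36.2 and 32.6 CPM. Wells D9, D10, D11 and D12 had 13.6, 7.72, 20.2 and 14.6 CPM. The groups did not overlap, although A11 and D11 were close. The fold was 2.46, a log2 ratio of 1.30 (1.05 to 1.57) from 479 and 164 UMIs, and 7 of 8 sublibraries had this order. Ccn2 spans 3.24 kb, and against genes under 10 kb the log2 ratio was 1.69. Its exons overlap those of Gm15270 on the other strand, a gene with 37 UMIs, and whether counting used strand is not given in the sources used here.

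The Sox9cKO UMIs of Ccn2 were concentrated in 1 group of cells. Cluster 10 held 136 Sox9cKO and 0 Sox9con cells, spread over all 5 wells at 4.72% to 6.10% of their biliary cells. It had 5.97% of Sox9cKO UMIs but 38.8% of the Ccn2 UMIs, at 216.8 CPM (186.7 to 250.2), and 54 of its cells (39.7%) had a Ccn2 UMI. Cluster 10 was singled out for its Ccn2 level, the highest of the biliary clusters in Sox9cKO cells. Leaving it out changes the Sox9cKO-labelled library only and must lower the ratio of any gene concentrated there. Without cluster 10 Ccn2 fell to 21.7 CPM and a log2 ratio of 0.68 (0.40 to 0.97). That is below 2-fold, so that 0 of the 8 genes were 2-fold apart. Of the 293 Sox9cKO Ccn2 UMIs then left, 192 were in cluster 4, which has 783 Sox9cKO and 2 Sox9con cells. Cluster 4 held 40.1% of the Sox9cKO Ccn2 UMIs with 34.7% of all Sox9cKO UMIs, at 38.5 CPM. The ratio of 0.68 thus rests largely on a cluster with almost no Sox9con cells to set beside it. In shared clusters Ccn2 was higher in cluster 1 (1.60, 0.33 to 3.19) and cluster 7 (2.30, 1.07 to 3.99), while in cluster 6 it was 0.53 (-0.73 to 1.93).

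Other genes of the pathway were also concentrated in cluster 10. It held 39.5% of the Sox9cKO UMIs of Ajuba, a LIM protein that restrains LATS kinases, and 20.8% of those of Amotl2, a junction protein that binds YAP. It held 19.1% of Lats2, 10.6% of Wwtr1 and 8.05% of Ccn1, against 1.92% of Tead1 and 2.78% of Axl. For Ankrd1 its share was 6.44%, close to its share of all UMIs. Tead1 stood at 272.7 CPM there, the lowest of the Sox9cKO clusters in the biliary fraction.

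The 10 leading genes of cluster 10 included no biliary marker, which was true of every biliary cluster. Besides Ccn2, Fos and heat shock genes they included Hp, Ahsg, Trf and G6pc, genes known for their expression in hepatocytes. However, 12 of 13 biliary markers reached 50 CPM there. Of the 10 hepatocyte markers 3 did, the same number as in clusters 1, 2, 3, 4 and 8. Immediate early and heat shock genes are given here after their values were seen. Fos, a subunit of AP-1, had 3154 CPM in cluster 10, 183.4 CPM in the other Sox9cKO cells and 342.1 CPM in Sox9con cells. The heat shock gene Hspa1a had 861.2 CPM, 28.9 CPM and 109.5 CPM in the same order. Egr1, an immediate early transcription factor, had 3059, 295.8 and 575 CPM. The part of these genes in the Ccn2 level was not tested.

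Ankrd1, an ankyrin repeat protein and a widely used YAP readout, was abundant, and its pooled ratio was close to that of Ccn1 while its wells overlapped. Wells A11, A12, B1, B2 and B3 had 985.2, 730.3, 910.5, 513.4 and 771 CPM. Wells D9, D10, D11 and D12 had 746.7, 1088, 1115 and 954.4 CPM. The groups overlapped, with D9 below A11, B1 and B3 and with B2 lowest of all. The log2 ratio was -0.31 (-0.35 to -0.27), and 4 of 20 well pairs had the opposite order, over a range from -1.12 to 0.40. It ran from -0.45 without well D9 to -0.20 without well B2. Ankrd1 spans 8.14 kb, and relative to genes under 10 kb it stood at 0.08.

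Axl, a receptor tyrosine kinase for the ligand GAS6, was at the other end of the scale. It had 36 UMIs in all Sox9cKO biliary cells, or 2.50 CPM (1.75 to 3.47), and 11 UMIs in all Sox9con biliary cells, or 0.906 CPM (0.452 to 1.62). Wells A11, A12, B1, B2 and B3 had 5, 10, 9, 7 and 5 Axl UMIs, and wells D9, D10, D11 and D12 had 4, 3, 1 and 3. In CPM every Sox9cKO well, at 1.72 to 3.34, was above every Sox9con well, at 0.471 to 1.03. The log2 ratio was 1.43 (0.46 to 2.59). Over all kept cells, which include endothelial-like and mesenchymal-like cells with more Axl, it was 0.54. Random thinning to 2000 UMIs gave 1.23 in a first draw, with 13 and 6 UMIs, but -0.01 in a second, with 7 and 8 UMIs. At this depth the Axl difference was not settled by the counts.

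**Figure D2:**
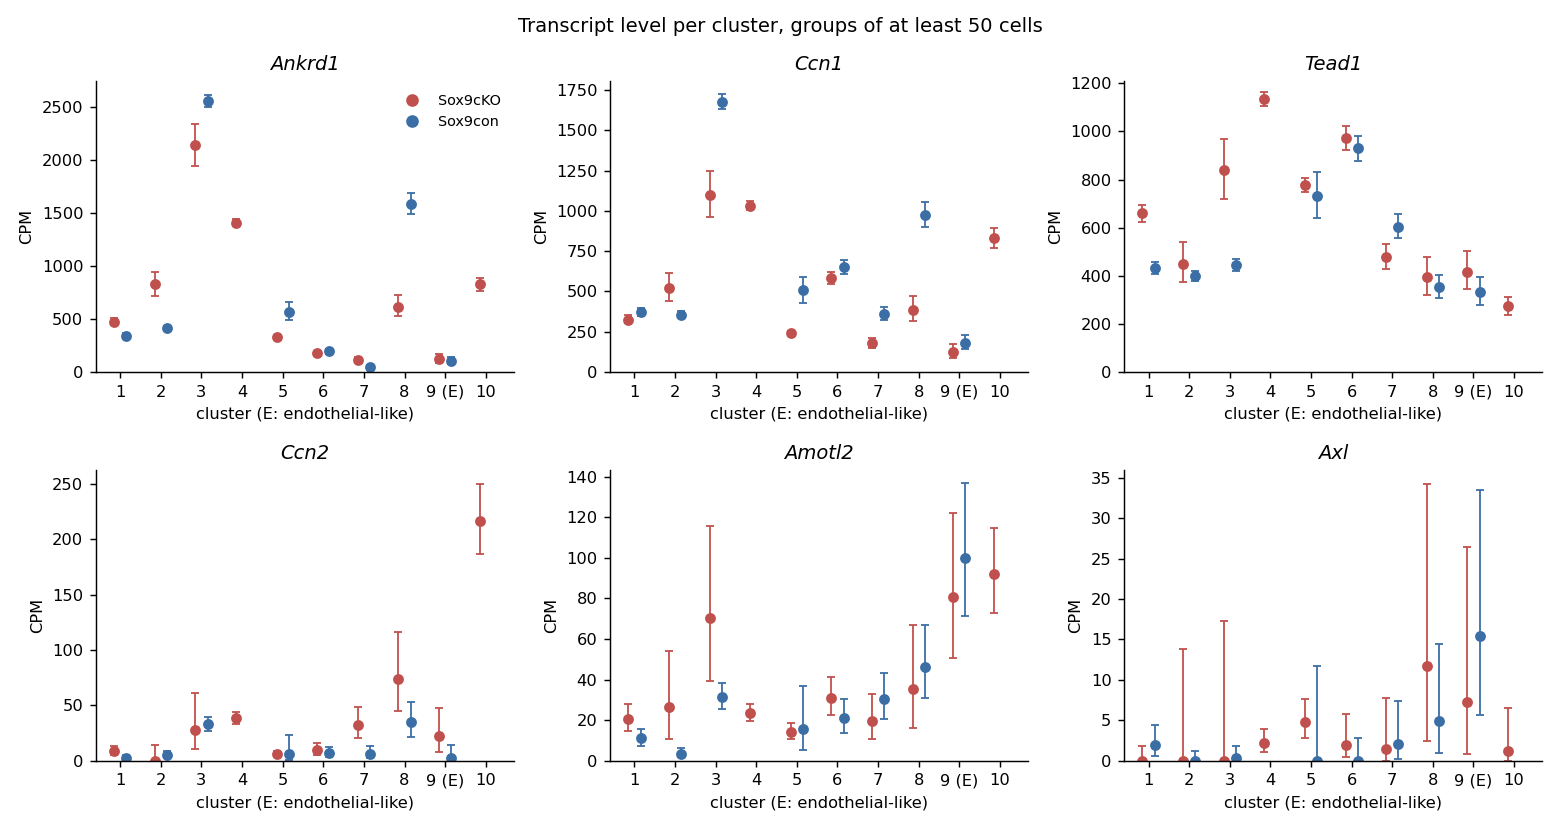
Transcript level in CPM (vertical axis, starting at 0) of 6 of the genes in each cluster, for cluster and library groups of at least 50 cells, with exact 95% Poisson intervals as bars. Ankrd1 and Ccn1 were highest in clusters 3 and 4 and in the Sox9con cells of cluster 8, Ccn2 in cluster 10, and Axl was at most 15.4 CPM in every group.

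Ankrd1 was a gene of a few cell clusters in both libraries, although the clusters were made without it. In Sox9con cells, cluster 3 (868 cells, led by Adgrv1, Ctnna2 and Rhoj) had 2555 CPM (2498 to 2612) and held 68.0% of Ankrd1 UMIs with 25.3% of all UMIs. In Sox9cKO cells, cluster 4 (783 cells, led by Vtn, Fst and Ces1c) had 1405 CPM and held 63.5% of Ankrd1 UMIs with 34.7% of all UMIs. Besides Vtn, the leading genes of cluster 4 included Fgg, Fga, Gc and Serpina1c, plasma protein genes known from hepatocytes. As in every biliary cluster, none of the leading genes was a biliary marker, while 12 of 13 biliary markers reached 50 CPM. Of the 10 hepatocyte markers 3 did, the same number as in clusters 1, 2, 3, 8 and 10. Each library thus had its own large Ankrd1-rich cluster: cluster 3 had 63 Sox9cKO cells and cluster 4 had 2 Sox9con cells. With 1 library per group, a cluster mostly of 1 library may be that library and not a cell type. The 63 Sox9cKO cells of cluster 3 also had a high level, 2134 CPM (1943 to 2339).

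With both clusters taken out of both libraries, a choice made for their high Ankrd1, the wells overlapped. The remaining Sox9cKO biliary cells had 294.8 to 560.2 CPM of Ankrd1 over the 5 wells, and the remaining Sox9con cells had 310.7 to 474.1 CPM over 4 wells. The lowest well of each library was the same in both kinds of cell. B2 was lowest of the Sox9cKO wells inside cluster 4 (961.2 CPM) and in the remaining cells (294.8 CPM). D9 was lowest of the Sox9con wells inside cluster 3 (1899 CPM) and in the remaining cells (310.7 CPM). The order of the other Sox9cKO wells was not kept. B1 was highest inside cluster 4 (1710 CPM) but, at 350.9 CPM in the remaining cells, was below A11, A12 and B3. The share of cells in the Ankrd1-rich cluster varied less, from 27.6% to 32% in Sox9cKO wells and from 23.6% to 27.9% in Sox9con wells.

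In 2 of the 3 shared clusters the Ankrd1 ratio had the opposite sign to the pooled one. It was 0.47 (0.34 to 0.61) in cluster 1, led by Car4 and the mesothelial-list gene Msln, and 1.18 (0.65 to 1.73) in cluster 7, led by Ltf and Muc4. In cluster 6, led by Muc6 and Bcl11a, it was -0.12 (-0.37 to 0.13). Levels in cluster 7 were low, at 110.9 and 48.8 CPM. The Mantel-Haenszel ratio over clusters, which gives cluster 10 no weight and cluster 4 almost none, was -0.06. Among the other clusters with at least 50 cells of each library, Ankrd1 was higher in Sox9cKO cells of cluster 2 (826.1 and 414 CPM). It was lower in cluster 3 (2134 and 2555 CPM), cluster 5 (331.4 and 570.1 CPM) and cluster 8 (617.4 and 1585 CPM).

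The few Axl UMIs were not concentrated in clusters 3 and 4. Of 36 in Sox9cKO cells, 17 (47.2%) were in cluster 5 (612 cells, led by Slit3 and Il18r1, 4.78 CPM), which held 24.8% of all UMIs. Another 11 (30.6%) were in the Ankrd1-rich cluster 4, which held 34.7%. Of 11 in Sox9con cells, 5 (45.5%) were in cluster 1, which held 21.7% of all UMIs. Cluster 8, where Sox9con cells had Ankrd1 at 1585 CPM, held 3. Those counts are too small to separate Axl from Ankrd1 by cluster. The richest cells for Axl were outside the biliary fraction. The mesenchymal-like cells of both libraries together had 13 Axl UMIs in 15 cells, or 239 CPM (127.3 to 408.7), and the endothelial-like cells 8 UMIs in 211 cells, or 12.1 CPM (5.21 to 23.8). Biliary cells had 1.77 CPM (1.30 to 2.36).

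Ankrd1 was instead highest in biliary cells, with 851.2 CPM (840.1 to 862.3) beside 111.6 CPM (87.6 to 140.1) in endothelial-like cells. The 15 mesenchymal-like cells had 1 Ankrd1 UMI, or 18.4 CPM (0.47 to 102.4), which does not set them apart from endothelial-like cells. Endothelial-like cells had Ankrd1 at 15.7% of the biliary level in the Sox9cKO-labelled library and 11.1% in the other. The 13 biliary marker genes stood in those cells at a median of 17.2% and 18.5% of their biliary level, so the Ankrd1 signal there was no higher than that of transcripts such cells should lack. Ccn1 stood at 20.2% and 23.9%, above both medians. Single biliary markers ranged from 9.89% to 61.15% and from 10.9% to 83.9%, too wide to tell whether the Ccn1 signal there exceeds theirs.

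Wwtr1, Yap1, Amotl2 and Lats2 had the opposite class pattern. Endothelial-like cells had 3.70 and 2.78 times the biliary level of Wwtr1, 2.76 and 2.29 times that of Yap1, 3.04 and 5.33 times that of Amotl2 and 6.69 and 4.69 times that of Lats2, in Sox9cKO and Sox9con order. In CPM, Wwtr1 had 772.2 and 597.6 in those cells, and Lats2, a kinase that restrains YAP, had 102.5 and 79.5. Tead1 did not share this pattern and stood at 49.2% and 66.7% of its biliary level in those cells. Ajuba had 0 UMIs in 87 and 124 endothelial-like cells.

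Within the biliary fraction Amotl2 had 26.4 CPM (23.8 to 29.2) and 18.8 CPM (16.4 to 21.4), with wells from 20.9 to 34.3 and from 13.2 to 21.6 that overlapped. Its log2 ratio was 0.49 (0.25 to 0.74), higher in 19 of 20 well pairs. Without cluster 10, which holds Sox9cKO cells only, the Amotl2 ratio was 0.25 and its interval (-0.006 to 0.50) spanned 0. In shared clusters 1, 6 and 7 it was 0.88 (0.17 to 1.63), 0.56 (-0.14 to 1.29) and -0.62 (-1.66 to 0.33). Lats2 had 15.3 CPM and 17 CPM, a log2 ratio of -0.15 (-0.43 to 0.13). Without cluster 10, which held 19.1% of the Sox9cKO Lats2 UMIs and no Sox9con cells, the Lats2 ratio was -0.36 (-0.66 to -0.07). Its exons overlap those of Gm49361 on the same strand, which had 31 UMIs. Ajuba had 86 and 58 UMIs, 5.99 and 4.78 CPM. Its log2 ratio was 0.32 (-0.17 to 0.83), and -0.31 (-0.88 to 0.25) without cluster 10, and both intervals spanned 0.

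**Figure D3:**
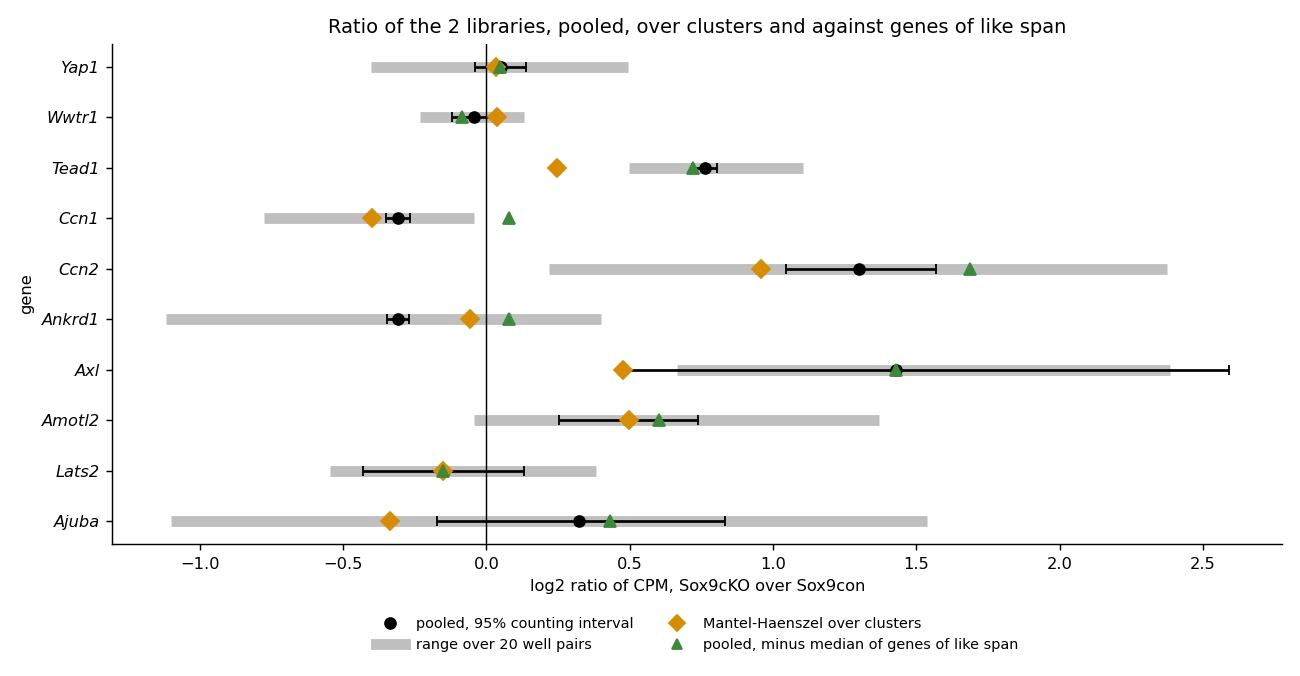
Log2 ratio of CPM, Sox9cKO over Sox9con (horizontal axis), for each gene: pooled with its exact 95% interval, the range over the 20 well pairs, the Mantel-Haenszel ratio over clusters, and the pooled ratio minus the median of genes of like span. The Ankrd1 and Ccn1 values moved from -0.31 to 0.08 against genes of like span, and Tead1 moved from 0.76 to 0.25 with the Mantel-Haenszel ratio.

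The share of cells with a transcript was compared after thinning to 2000 UMIs, which left 2461 Sox9cKO and 2800 Sox9con biliary cells and left out 139 and 563 shallower ones. Yap1 was seen in 24.7% and 22.8% of cells and Wwtr1 in 30.9% and 32.2%. Ccn1 was seen in 39.7% and 41.9%. Ccn2 was seen in 3.86% (3.13 to 4.70) and 2.07% (1.58 to 2.67), beside 1 of 58 and 0 of 77 endothelial-like cells, the latter allowing a share of cells with a UMI of up to 3.90% (3 cells of the total). Unthinned, Ccn2 was seen in 5 of 87 (5.75%) and 1 of 124 (0.806%) endothelial-like cells, beside 7.08% and 3.24% of biliary cells. Those counts are too small to set the classes apart for Ccn2. For Amotl2 the thinned shares were 4.96% and 2.96%, for Lats2 2.60% and 3%, and for Ajuba 1.06% and 0.857%. Before thinning, at median depths of 5126 and 3226 UMIs, all 10 shares were higher in the Sox9cKO-labelled library, for example 47.2% and 34.7% for Yap1.

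Ankrd1 was seen in 34.9% (33.0 to 36.8) and 31.8% (30.1 to 33.5) of thinned cells. This order goes against the CPM and reversed at 1000 UMIs, so no order was read from it. Before thinning the shares were 47% and 40.2%. Endothelial-like cells, at unthinned median depths of 2418 and 2388 UMIs, had 6.90% and 11.7% after thinning. A cell with Ankrd1 held on average 9.02 and 8.54 UMIs before thinning, and single cells reached 115 and 133. Axl was seen in 11 of 2461 cells (0.447%, 0.223 to 0.798) and 5 of 2800 cells (0.179%, 0.058 to 0.416), and before thinning in 28 and 9 cells. Endothelial-like cells had Axl in 0 of 58, which by the same limit allows up to 5.17%, and in 2.60% of 77 cells. That class had a higher Axl level than biliary cells, so it sets no background for Axl, and no order was read from the Axl shares. A cell with Axl held on average 1.29 and 1.22 UMIs before thinning, and at most 5 and 2.

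**Figure D4:**
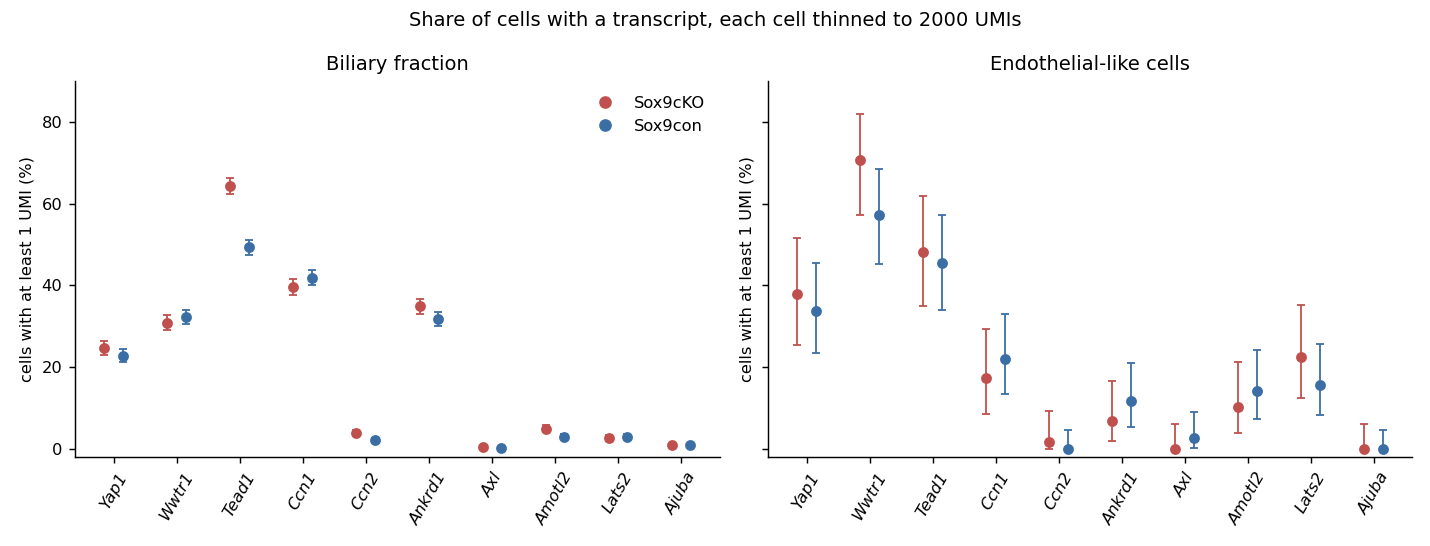
Percent of cells with at least 1 UMI (vertical axis, starting near 0) of each gene after thinning to 2000 UMIs, in the biliary fraction and in endothelial-like cells, with exact 95% Clopper-Pearson intervals as bars. Tead1 had the widest gap between libraries, 64.3% and 49.4%, and Lats2 and Wwtr1 were more often seen in endothelial-like than in biliary cells.

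Detection of the genes in the same thinned cell was then described. The pair with the most cells beyond independent detection was Ankrd1 and Ccn1. In the Sox9cKO-labelled library Ankrd1 was seen in 50.5% of cells with Ccn1 (47.3 to 53.6) and 24.6% of cells without it (22.4 to 26.9), and 493 cells held both where independent detection gives 340.6. In the Sox9con-labelled library it was 47.9% and 20.2%, with 562 cells where 373.2 were given by independence. Within clusters the odds ratio was 2.90 and 3.17, beside 3.12 and 3.63 with clusters ignored.

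The coactivators showed no such pairing. Wwtr1 was seen in 31.1% of Sox9cKO cells with Yap1 and 30.9% of those without, and the odds ratio within clusters was 1 in that library and 0.87 in the other. Ankrd1 and Axl shared 3 Sox9cKO cells where 3.84 were given by independence, and 1 Sox9con cell where 1.59 were. Those counts are too small to show a relation. Ccn1 and Ajuba shared 17 and 18 cells where 10.3 and 10.1 were given by independence, and Ccn2 and Amotl2 shared 12 and 11 cells where 4.71 and 1.72 were given by independence. Tead1 and Ccn2 went the other way in the Sox9con-labelled library, in 14 cells where 28.6 were given.

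Most cells held only some of the genes. After thinning, 9.91% of Sox9cKO and 13% of Sox9con cells had no UMI of any of the 10, 30.6% and 30% had exactly 2 genes, and 2.84% and 1.71% had 5 or more.

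**Figure D5:**
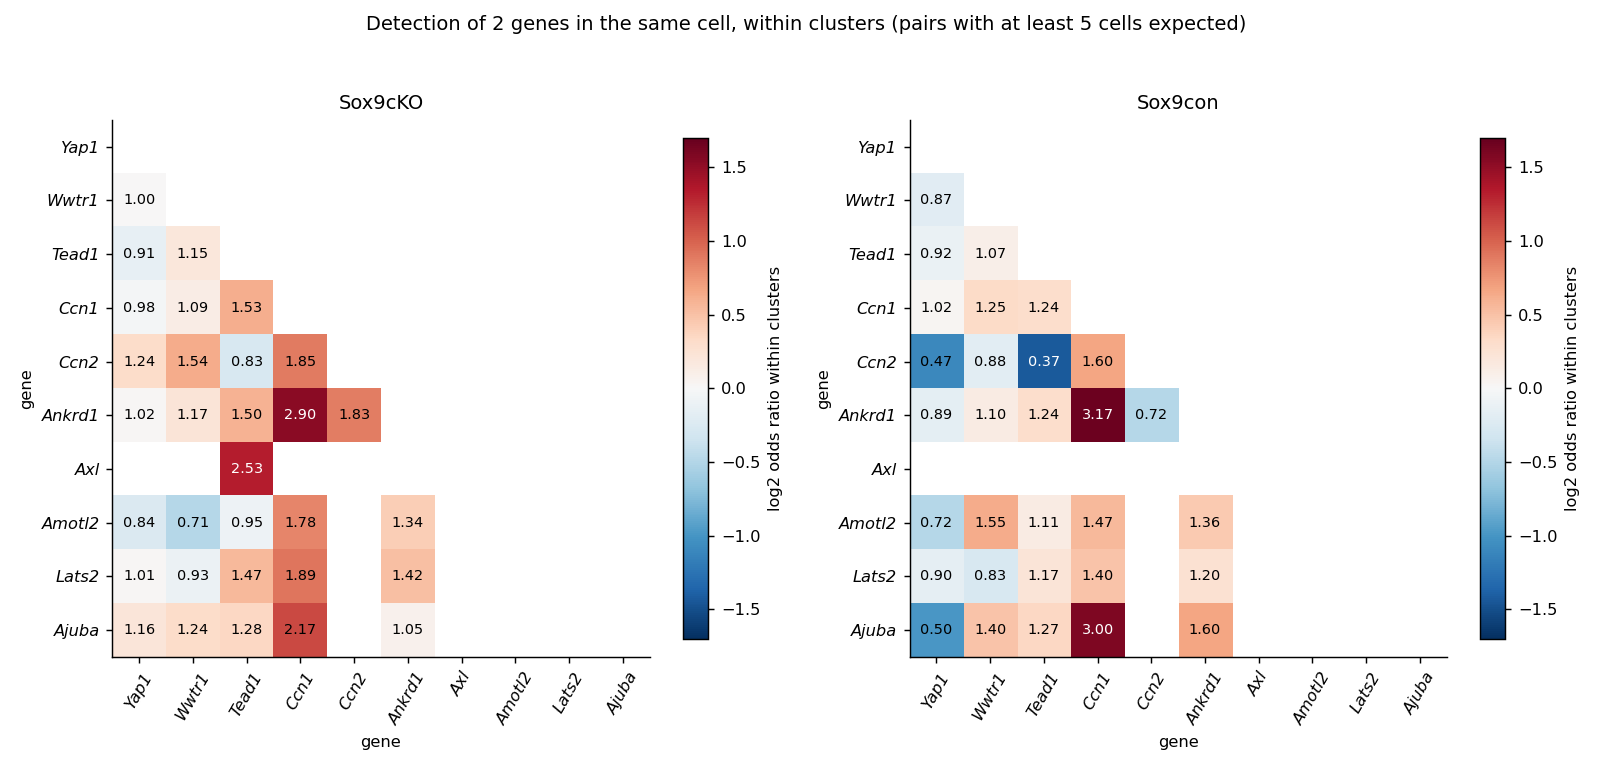
Odds ratio (printed) and its log2 (colour) for detection of each pair of genes in the same cell thinned to 2000 UMIs, within clusters, by library, for pairs with at least 5 cells expected. Ankrd1 with Ccn1 stood at 2.90 and 3.17, and Yap1 with Wwtr1 at 1 and 0.87.

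Genes whose level followed Ankrd1 across clusters were sought over 16 groups of at least 50 biliary cells, each a cluster in 1 library, which share library and depth. Among 4593 genes the nearest were Tgfb2, a TGF-beta ligand (Pearson r of log2 CPM 0.94), Amotl1, an angiomotin relative of Amotl2 (0.92), and Pak6, a p21-activated kinase (0.92). For Axl they were Cdip1 (0.81), Gmeb1 (0.76) and Epb41l4b (0.76), which rest on 47 Axl UMIs in all. Over the same groups Ankrd1 and Ccn1 had r of 0.74, Ankrd1 and Axl -0.02, and Amotl2 and Lats2 0.87.

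The wider pathway was described from 3 lists. Of 21 upstream genes, 20 reached 200 UMIs. Fat1, an atypical cadherin, and Map4k4, a kinase that acts on LATS, were at least 2-fold higher in the Sox9cKO-labelled library and 0 were 2-fold lower, beside 2.21% and 1.79% of all tested genes. Fat1 had 1015 and 441.5 CPM, a log2 ratio of 1.20 (1.16 to 1.25), and Map4k4 591.6 and 288 CPM, a ratio of 1.04 (0.98 to 1.10). Of the 20 tested genes, 3, with Fat1 and Map4k4 among them, were higher in all 20 well pairs, beside 7.68% of all tested genes. Lower in all 20 were 0, beside 8.33%. Fat1 and Map4k4 span 116.8 and 125.4 kb, and 4.99% of tested genes of at least 100 kb were 2-fold higher. The lowest were Limd1 (-0.20) and Taok3 (-0.18). The list's median was 0.11, beside -0.07 for all tested genes.

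Of 5 TEAD partner and paralog genes, 3 were tested: Tead4 (0.43, 0.32 to 0.54), Tead3 (0.24, 0.01 to 0.48) and Vgll4, which competes with YAP for TEAD (-0.20, -0.31 to -0.09). None was 2-fold apart in this count of 3, and the median was 0.24. Tead1 had the largest ratio of the tested TEAD genes.

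Of 16 further YAP target genes, 12 were tested. At least 2-fold higher was 1 of them, beside 2.21% of all tested genes: Arhgef17, with 186 and 86.8 CPM (log2 ratio 1.10, 0.996 to 1.20). None was 2-fold lower, beside 1.79% of all tested genes. Nuak2, a kinase, followed at 0.69 (0.45 to 0.93). The lowest were F3, which encodes tissue factor (-0.25, -0.28 to -0.22), and Rbms3 (-0.24, -0.29 to -0.19), an RNA-binding protein. Of the 12 genes, 3, with Arhgef17 among them, were higher in all 20 well pairs, beside 7.68% of all tested genes. Lower in all 20 was 1, Rbms3, beside 8.33%. The list's median was 0.12, with 7 genes higher and 5 lower, beside 3871 higher and 5453 lower of all tested genes. Ptpn14 is on both the upstream and the target list. Marker sums were also taken per well in the biliary fraction. The 13 biliary markers summed to 10764 to 13067 CPM in Sox9cKO wells and 14032 to 21427 CPM in Sox9con wells, which did not overlap. The summed level of 12 endothelial markers was 16.7 to 34.5 CPM in Sox9cKO wells and 30.2 to 49 CPM in Sox9con wells, and 0 of the 12 reached 50 CPM. Mesenchymal markers summed to 212.8 to 265.2 and 197.6 to 219.4 CPM, and hepatocyte markers to 953.6 to 1294 and 859.6 to 1002 CPM. Macrophage markers summed to 33.3 to 47.5 and 21.9 to 34.8 CPM, with Clec4f and C1qa at 0, and mesothelial markers to 85.7 to 130.8 and 86.6 to 100.4 CPM. Their part in the ratios was not tested.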

How the data were processed

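Single biliary cells of 1 Sox9cKO and 1 Sox9con library were barcoded by split-pool combinatorial barcoding, per the labels' protocols. The authors deposited whole-number UMI counts per cell and gene, against a genome named mg39 per the file headers and GRCm39 per the submitters' processing notes. The aligner, annotation and use of strand are not given in the sources used here. Cells were kept from 500 genes and 1000 UMIs upward and with a mitochondrial share up to 15%, which removed 27 and 115 cells. Scrublet (scanpy 1.11.5) marked 3 of 6362 cells, too few for it to have worked, and these were removed. Kept cells were 2712 and 3505. Clustering used 2000 variable genes, 30 components, 15 neighbours and resolution 0.5, without Sox9, the 10 genes and the wider lists. Clusters were named by markers at 50 CPM or more, at least 3, and stayed unnamed where all 10 leading genes were at least 6 log2 units above other cells and held no marker of the class. The biliary fraction is what was left without endothelial-like (87 and 124 cells), mesenchymal-like (8 and 7) and unnamed (17 and 11) clusters. No biliary cluster has a biliary marker among its 10 leading genes, cluster 1 has Msln, and clusters 4 and 10 have hepatocyte genes outside the marker list, so ratios were also taken over all kept cells and by cluster.

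Counts were summed per library and scaled to CPM, and log2 ratios had 0.5 counts added. Intervals are 95% exact Poisson, Clopper-Pearson and conditional binomial. Scripts were tested on simulated data. Alternatives used edgeR 4.0.16 and DESeq2 1.42.0 for library factors only. Gene spans came from GENCODE M21 by gene ID (9310 of 9324 tested genes) and promoters from RefSeq. The named genes are the 10, the 2 highest and 2 lowest of each wider list, every list gene at least 2-fold apart, and the 3 genes most like Ankrd1 and Axl by Pearson correlation of log2(CPM + 10) among genes with at least 1000 UMIs. The genes and lists were chosen with earlier results of these data known.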

Additional observations from a re-analysis of the deposited data

How the results depend on the processing

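No paired analysis was possible because each genotype is 1 library, and wells carry no shared number. With 1 library per group and counting error only, depth limits Axl and Ajuba most. TMM and DESeq2 factors moved the median of all tested genes by 0.10 and 0.15.

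The Ankrd1 log2 ratio of -0.31 became -0.21 (TMM), -0.16 (DESeq2), -0.27 (stricter cell filter), -0.39 (second thinning draw), -0.50 (mean over cells), -0.058 (Mantel-Haenszel over clusters, with almost no weight on clusters 4 and 10), -1.29 (only clusters with at least 50 cells of each library) and 0.079 (relative to genes of like span). The setting of at least 50 cells drops cluster 4, with 63.5% of the Sox9cKO Ankrd1 UMIs. It keeps cluster 3, with 68.0% of the Sox9con Ankrd1 UMIs. For Ccn1 these shares were 58.1% and 55.6%, so that setting cannot compare either gene between the libraries. Leaving out 1 well gave -0.45 to -0.20. Ccn1 reversed to 0.078 relative to genes of like span. Ccn2 reversed to -0.19 in clusters with at least 50 cells of each library, a setting that leaves out clusters 4 and 10. Axl, at 1.43, was 1.23 in the first thinning draw and turned to -0.006 in the second, and leaving out 1 well gave 1.29 to 1.54. The number of members 2-fold apart, 1 of 8, became 0 with the Mantel-Haenszel ratio and 0 without cluster 10, which holds Sox9cKO cells only. It became 2 (Ccn1 and Ankrd1) in clusters with at least 50 cells of each library, the setting that drops cluster 4 and keeps cluster 3. The settings without cluster 10, with 50 cells of each library, of like span and of the second draw were chosen after seeing the data. The causes of these shifts were not tested. Tead1 and Amotl2 stayed above 0 in all 22 settings, although the Amotl2 interval without cluster 10 (-0.006 to 0.50) spanned 0.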
